A study of Mus musculus with 12 samples.

Results

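The 6 transcripts of the neurotrophin system, those of the ligands Bdnf and Ntf3 and of the receptors Ntrk2, Ntrk3, Ngfr and Sort1, were followed in the cerebellar cortex of mice on 3 diets. They were chosen by symbol, as 6 of the 54752 genes in the count table, each symbol matched a single gene, and all 6 passed the filter on low counts. The 12 mice were wild-type (WT) males, F1 hybrids of C57BL6J and FVB, aged 12 weeks. There were 4 on food ad libitum (AL), 4 on dietary restriction (DR) and 4 on a ketogenic diet (KD), and each library was 1 mouse. The tissue held folia of the hemisphere, paravermis and vermis and excluded the cerebellar nuclei. AL and DR mice were killed in the same time window early in the dark. DR mice received their food once a day, just before the dark period, and were killed without the last meal. The diet and the time since feeding therefore cannot be told apart. How the KD was composed and when those mice were killed is not given in the sources used here.

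Neurotrophins are secreted proteins that keep neurons alive and tune their dendrites and synapses. They are made as precursors that proteases cut to the mature form. Mature brain-derived neurotrophic factor (from Bdnf) binds the receptor tyrosine kinase TrkB (Ntrk2), and neurotrophin-3 (Ntf3) binds TrkC (Ntrk3). The p75 receptor (Ngfr), a member of the tumour necrosis factor receptor family, binds all mature neurotrophins and, together with sortilin (Sort1), the uncut precursors, while sortilin also sorts proteins inside the cell. In the cerebellum Bdnf and Ntf3 are best known for the survival and migration of granule cells and the growth of Purkinje cell dendrites.

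Reads counted per library ranged from 31712084 to 40798644 with a median of 36674269, and the shares of the 100 most abundant genes (16.16 to 17.13%) and of mitochondrial genes (3.603 to 4.221%) were narrow. The granule cell marker Gabra6 (817 to 946 CPM, read counts scaled to the size of the library) and the Purkinje cell marker Pcp2 (263 to 331 CPM) were high in every library. Markers of excluded tissue differed among themselves. The list for cerebellar nuclei and brainstem summed to 45.5 to 54.3 CPM, most of it from Slc6a5 (41.1 to 51.1 CPM), which glycinergic Golgi cells of the cortex also express, while Slc17a6 was at 0.715 CPM or below and Chat at 0.0634 or below. The choroid plexus list summed to 8.28 to 17.2 CPM, with Clic6 at 7.25 to 9.68, Ttr at 0.361 to 7.95 and Folr1 at 0.104 or below. In a bulk sample of this kind, fewer cells of a type and less RNA per cell cannot be told apart.

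DNA around start sites is shown for the receptor and the ligand whose values are discussed most. RefSeq windows (GRCm38.p6) of 300 bases, from 250 before a start site to 50 after it, were at hand for 4 of the 6 genes: 7 for Bdnf, 2 for Ntf3, 1 for Ntrk2 and 1 for Ngfr. Ntrk3 and Sort1 had no entry. The Ngfr window lies at chr11:95587649-95587948 on the minus strand. Capitals in it mark GC boxes, searched as GGGCGG on either strand.
Ngfr: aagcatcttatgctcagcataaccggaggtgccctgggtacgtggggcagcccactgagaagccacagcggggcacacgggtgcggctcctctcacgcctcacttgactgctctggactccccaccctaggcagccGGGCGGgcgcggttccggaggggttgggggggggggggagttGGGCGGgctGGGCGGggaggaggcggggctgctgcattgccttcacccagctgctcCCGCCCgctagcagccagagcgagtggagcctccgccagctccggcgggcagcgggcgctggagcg
The GC boxes began at -114, -72, -63 and -16, counted from the start site with -1 as the base before it. At 71.7% G and C and 23 CpG the window was richer than the median of all 32851 windows, 52.7% and 7, and 35.7% of all windows held at least 1 GC box. Bdnf has many promoters, and neuronal activity is known to drive some of them through the factor CREB. Of its 7 windows, 1 held the core of the cAMP response element, searched as TGACG and its complement CGTCA, and it lies at chr2:109692186-109692485 on the plus strand. Capitals mark that core.
Bdnf: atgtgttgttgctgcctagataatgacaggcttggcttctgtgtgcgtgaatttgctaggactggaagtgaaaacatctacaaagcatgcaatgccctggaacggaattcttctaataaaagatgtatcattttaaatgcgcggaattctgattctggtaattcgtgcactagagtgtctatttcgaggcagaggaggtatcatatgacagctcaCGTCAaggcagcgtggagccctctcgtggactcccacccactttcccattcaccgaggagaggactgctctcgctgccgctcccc
This core began at -35, and 20.8% of all windows held it. The full palindrome TGACGTCA (1.79% of all windows) and the EGR site GCGTGGGCG (0.612%) occurred in none of the 11 windows. An E-box, CACGTG (7.15% of all windows), occurred in 1, a window of Ntf3 at -231. These matches describe letters only and were not tested for binding.

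Levels of different genes were compared per kilobase (kb) of exonic bases. These bases cover all annotated transcripts of a gene, 7569 for Sort1, 19292 for Ntrk2 and 30170 for Ntrk3, so order and percentiles depend on that length. Without it, diet means of Ntrk2 (402 to 409 CPM) and Ntrk3 (353 to 388) exceeded those of Sort1 (159 to 183). On the scale per kb, Sort1 (22.9 CPM per kb over the 12 libraries) and Ntrk2 (21.1) were the highest of the 6. Their ranges, 19.8 to 24.8 and 20.2 to 21.9, overlapped. Ntrk3 followed at 12.1 CPM per kb (10.8 to 13.2), apart from its neighbours on either side. The remaining members were far lower, with Bdnf at 3.42 (2.71 to 4.17), Ntf3 at 2.49 (1.18 to 3.21) and Ngfr at 2.1 (1.39 to 2.92), and here each gene overlapped the next in order. Among the 19557 genes kept over the 12 libraries these levels stood between the 40.7th percentile (Ngfr) and the 89.1st (Sort1). Ntf5, the gene of neurotrophin-4/5, a further ligand of TrkB, had 0 to 3 reads in a library and could not be tested.

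**Figure D1:**
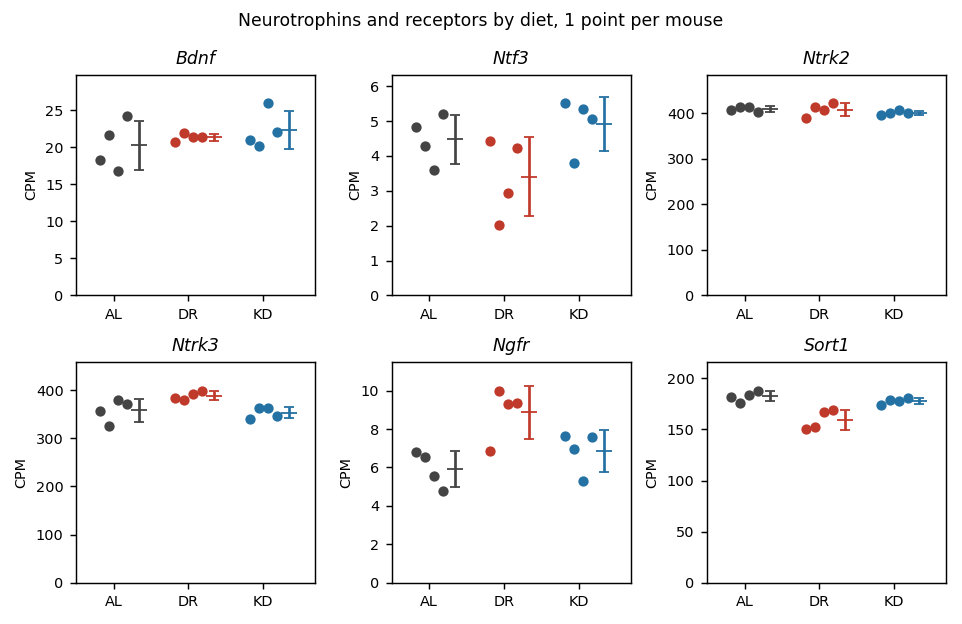
CPM of each of the 6 genes (vertical axis, from 0) by diet (horizontal axis), with 1 point per mouse and the mean ± SD of 4 mice beside the points. Ngfr of DR mice (6.87 to 10.05 CPM) lies above that of AL mice (4.79 to 6.80), Sort1 of DR mice (150 to 169) lies below that of AL mice (176 to 188), and Ntrk2 stays between 390 and 422 in all 12 mice.

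DR was compared with AL to ask which of these transcripts respond to restricted feeding. Of the 6 genes, 1 rose and 1 fell at a false discovery rate (FDR, the Benjamini-Hochberg adjusted p of edgeR's quasi-likelihood test over all genes tested) under 0.05. Ngfr rose and Sort1 fell, the pair of genes whose proteins form the receptor for uncut neurotrophins. These 2 of 6 stand beside 3.06% of the 19052 genes tested that were called, 1.32% higher and 1.74% lower. The 2 ligands and the 2 Trk receptors did not pass, although Ntrk3 was the third of the 6 with an unadjusted p under 0.05, as 18% of all genes tested had.

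Ngfr (ENSMUSG00000000120.6, chr11:95568818-95587735, minus strand) has 1 annotated transcript. In AL mice it stood at 6.80, 6.56, 5.54 and 4.79 CPM, and in DR mice at 6.87, 10.05, 9.29 and 9.37 CPM. The 4 DR values all exceeded the 4 AL values, but DR replicate 1 did so narrowly. The increase was 49.3% (log2 fold change 0.58, SE 0.13, 95% confidence interval 0.30 to 0.86, FDR 0.0295, n = 4 and 4). Diets did not overlap for 10.9% of all genes tested in this comparison. The rise rests on 151 to 341 reads per library, and the SD of 4 mice was 15.8% of the mean on AL and 15.6% on DR, above the 6.91% and 5.66% that counting alone gives. Leaving out AL replicate 4, DR replicate 2, DR replicate 3 or DR replicate 4 moved the FDR to 0.0904, 0.0769, 0.0808 and 0.0709, and the log2 fold change stayed between 0.49 and 0.69 over all 8 omissions. KD mice, at 7.64, 6.97, 5.28 and 7.57 CPM, lay across the ranges of both other diets. Against AL their change was 0.21 on the log2 scale (interval -0.07 to 0.49, FDR 0.994), and against DR it was -0.37 (interval -0.64 to -0.10, FDR 0.116). The latter had an FDR of 0.0312 without DR replicate 1 and of 0.00797 without a filter on low counts. Dropping the filter also took the quasi-likelihood p of DR against AL from 0.000555 to 9.55e-08. The log2 fold change was then 0.57, so the FDR of that setting adds no evidence. Summed markers of meningeal fibroblasts overlapped between DR (50.1 to 71.0 CPM) and AL (55.5 to 68.3 CPM), while those of mural cells were lower on DR (124 to 137 against 142 to 148 CPM, exact permutation p = 0.0286, adjusted p = 0.159). The mural sum was also lower on KD than on AL, at 131 to 142 CPM and with the same p and adjusted p, so it was not particular to DR. Among DR mice replicate 1 was lowest in the meningeal sum, as in Ngfr, but AL replicate 4, lowest in Ngfr, had 66.1 CPM. Of 6 meningeal markers tested, 2 had a positive and 4 a negative log2 fold change on DR. Slc6a13 rose by 46.9% (FDR 0.0722) and Lum fell by 37.8% (FDR 0.0647). The part of these markers in the Ngfr result was not tested.

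Sort1 (ENSMUSG00000068747.14, chr3:108284082-108361511, plus strand) changed less but from far deeper counts, 4885 to 7394 reads per library. Its AL values were 182, 176, 184 and 188 CPM and its DR values 150, 152, 167 and 169 CPM. Every DR mouse lay below every AL mouse, and within DR replicates 1 and 2 were lower than replicates 3 and 4. Sort1 fell by 12.6% (log2 fold change -0.19, SE 0.05, interval -0.30 to -0.09, FDR 0.0425). In KD mice the values were 174, 179, 178 and 181 CPM, within or just below the AL range and above every DR mouse. The KD change was -0.03 against AL (interval -0.11 to 0.04, FDR 0.994) and 0.16 against DR (interval 0.06 to 0.26, FDR 0.0584). The DR call lies close to the threshold: the FDR was 0.0382 without DR replicate 4 and between 0.0558 and 0.124 without any other single mouse, at log2 fold changes of -0.22 to -0.16. Scaled by library totals, in place of TMM, the change was -0.17 with an FDR of 0.0552. For the KD and DR pair the FDR ran from 0.0185 to 0.0788 over the other analysis settings. Exons of Gm12523 on the opposite strand cover 4.47% of the exonic bases of Sort1.

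The summed level of 9 Purkinje cell markers moved with Sort1. It was 6923 to 7986 CPM on DR against 8232 to 8785 on AL, 12.9% lower, and KD, at 8117 to 8353 CPM, was 12.6% above DR. Each of these 2 differences had an exact permutation p of 0.0286, the smallest that 4 against 4 mice allow, and an adjusted p of 0.159 over 39 marker comparisons. With so few mice that adjustment could be passed only if most comparisons reached the smallest p. All 9 markers had a negative log2 fold change on DR, and Car8 was among those called. Granule cell markers, at 6303 to 6420 CPM on DR and 6110 to 6631 on AL, overlapped. The part of the Purkinje cell markers in the Sort1 result was not tested.

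**Figure D2:**
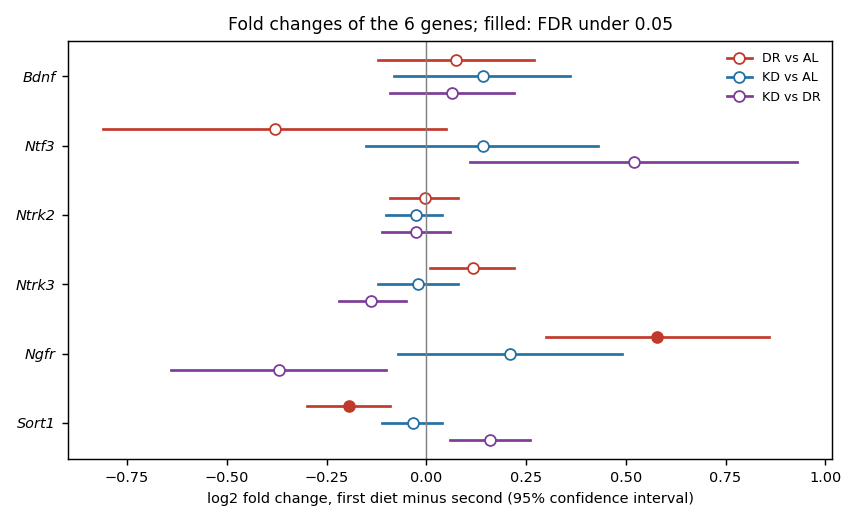
Log2 fold changes of the 6 genes (horizontal axis, first diet minus second) with 95% confidence intervals as bars, for 3 pairs of diets that share mice. Filled points have an FDR under 0.05, and these are Ngfr at 0.58 and Sort1 at -0.19 in DR against AL.

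Ntrk2 (ENSMUSG00000055254.15, chr13:58806569-59133970, plus strand) varied little between mice. AL mice had 408, 414, 414 and 402 CPM, DR mice 390, 413, 408 and 422 CPM, and KD mice 397, 401, 408 and 400.0 CPM. The 3 diets overlapped, and the SD within a diet was 1.11 to 3.3% of the mean. Its log2 fold change was -0.00 for DR against AL (interval -0.09 to 0.08, FDR 0.979), an interval of -6.16 to 6.06% for the gene total. For KD it was -0.03 against AL (interval -0.10 to 0.04) and -0.02 against DR (interval -0.11 to 0.06). The gene encodes a full-length TrkB and truncated forms without the kinase, and its 10 annotated transcripts are added up in a gene count, so a shift between the forms would not be seen here.

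Ntrk3 (ENSMUSG00000059146.12, chr7:78175959-78738012, minus strand), with 20 annotated transcripts, has truncated forms of its own. Its levels were 356, 326, 379 and 371 CPM on AL, 383, 379, 392 and 399 CPM on DR, and 340, 364, 362 and 346 CPM on KD. On DR, 3 of the 4 mice exceeded every AL mouse, DR replicate 2 was level with AL replicate 3, and all 4 exceeded all 4 KD mice. The log2 fold change of DR against AL was 0.12 (interval 0.01 to 0.22) and missed the threshold (FDR 0.233). Against DR, KD stood at -0.14 (interval -0.22 to -0.05, FDR 0.0665), with an FDR of 0.0188 to 0.094 over the other settings. Against AL it stood at -0.02 (interval -0.12 to 0.08, FDR 0.994).

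Bdnf (ENSMUSG00000048482.14, chr2:109674700-109727007, plus strand) overlapped in all 3 diets. Values were 18.2, 21.7, 16.8 and 24.2 CPM on AL, 20.7, 21.9, 21.3 and 21.4 CPM on DR, and 21.0, 20.1, 25.9 and 22 CPM on KD. The 4 DR mice were nearly identical, with an SD of 2.33% of the mean, below the 3.64% of counting error, while AL mice spread by 16.5% and KD mice by 11.4%. These spreads are a description of 4 mice each and were not compared by a test. DR differed from AL by 0.07 on the log2 scale (interval -0.12 to 0.27, FDR 0.739), a range from 8.24% lower to 20.8% higher. KD differed from AL by 0.14 (interval -0.08 to 0.36, FDR 0.994) and from DR by 0.06 (interval -0.09 to 0.22, FDR 0.697). Exons of Gm45346 on the opposite strand cover 14.4% of the exonic bases of Bdnf, and the library kit does not mark strand, so its level is uncertain, and the share of reads concerned was not tested.

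Ntf3 (ENSMUSG00000049107.13, chr6:126101412-126166910, minus strand) had 65 to 212 reads per library, the fewest of the 6. AL mice had 4.83, 4.28, 3.59 and 5.20 CPM, DR mice 4.44, 2.03, 2.93 and 4.23 CPM, and KD mice 5.51, 3.80, 5.34 and 5.05 CPM. On DR replicates 2 and 3 were below every other mouse of the 12, while replicates 1 and 4 lay inside the AL range. The SD on DR was 33.4% of the mean, against 15.7% on each of the other diets. The log2 fold change was -0.38 for DR against AL (interval -0.81 to 0.05, FDR 0.341), 0.14 for KD against AL (interval -0.15 to 0.43, FDR 0.994) and 0.52 for KD against DR (interval 0.11 to 0.93, FDR 0.144). No difference in this ligand passed the threshold here, and the first interval extends to a decrease of 42.8%. Without a filter on low counts the difference of KD and DR had an FDR of 0.00275. That setting lowered p at an unchanged fold change, so its FDR adds no evidence. For DR against AL, Ntf3 stayed at -0.38 while the quasi-likelihood p went from 0.0763 to 0.00485.

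In the comparison of KD with AL, 0 of the 6 genes passed by edgeR, 0 by DESeq2 and 0 by limma-voom, and 0 had an unadjusted p under 0.05. Of all 19036 genes, 0% were called and 4.87% had an unadjusted p under 0.05. Marker sums did differ between KD and AL. Those of mural cells (131 to 142 CPM on KD, 142 to 148 on AL) and blood (238 to 270 against 275 to 423) were lower on KD. Each had an exact permutation p of 0.0286 and an adjusted p of 0.159. For KD against DR, 0 of the 6 passed by edgeR, 0 by limma-voom and 2 by DESeq2 (Ntrk3 and Sort1), and 4 (Ntf3, Ntrk3, Ngfr and Sort1) had an unadjusted p under 0.05, where 4.94% of 19087 genes were called and 18.7% had an unadjusted p under 0.05. Sort1 and Ntrk3 did not overlap between these diets, as 11.8% of all genes did not. Summed markers of oligodendrocyte precursors (54.2 to 59.3 CPM on KD, 40.9 to 52.2 on DR) and of endothelium (132 to 145 against 129 to 132 CPM) were also higher on KD, each with an exact permutation p of 0.0286 and an adjusted p of 0.159, and their part in these results was not tested. Not every listed marker rose. In the precursor list Gpr17 was at 25.5 CPM on KD and 18.3 on DR, but Pdgfra at 16.5 and 16.7. In the endothelium list 3 markers had a positive and 2 a negative log2 fold change. The DR mice enter this comparison and the one with AL, so the 2 are not independent.

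Ratios of reads within a library do not depend on scaling between libraries. Per 1000 reads of Ntrk2, Ngfr had 14.5 ± 2.19 reads on AL, 21.7 ± 2.89 on DR and 17.1 ± 2.89 on KD (SD, n = 4 each). The DR range of 17.6 to 24.3 lay above the AL range of 11.9 to 16.7 and overlapped the KD range of 13.0 to 19.2. Sort1 had 446 ± 17.1 reads per 1000 of Ntrk2 on AL, 390 ± 17 on DR and 444 ± 7.35 on KD, and here DR (369 to 408) lay below AL (426 to 468) and KD (437 to 452). Ngfr had 32.5 reads per 1000 of Sort1 on AL, 55.7 on DR and 38.6 on KD, and the DR range of 45.7 to 65.9 lay above both others. Ngfr and Sort1 are the 2 members called on DR against AL in opposite directions, so this separation from AL follows from those calls. Ntrk3 per 1000 Ntrk2 reads was 875 ± 63.1, 951 ± 27.4 and 879 ± 22.7 on AL, DR and KD, and Ntf3 per 1000 Bdnf reads was 223 ± 29.5, 161 ± 56.3 and 221 ± 31.8. In the latter ratio DR replicate 2 stood lowest, at 92.7. The ratios reuse the counts tested above and carry no test of their own.

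**Figure D3:**
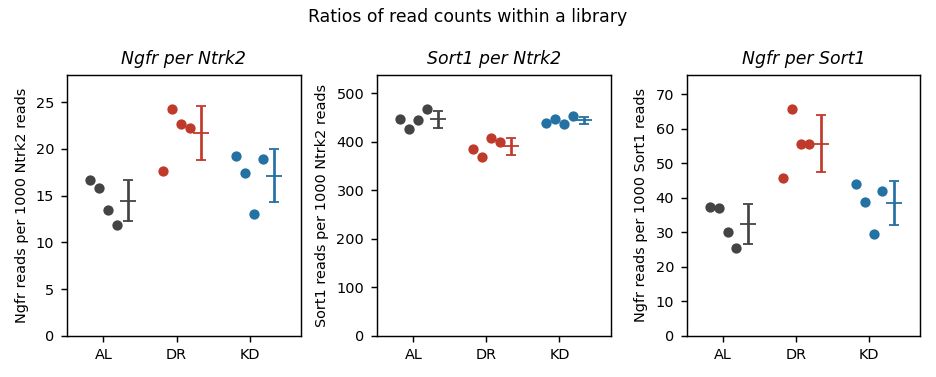
Reads of one gene per 1000 reads of another in the same library (vertical axis, from 0) by diet (horizontal axis), with 1 point per mouse and the mean ± SD of 4 mice. Ngfr per Sort1 was 45.7 to 65.9 on DR, above the 25.5 to 37.3 on AL and 29.6 to 43.9 on KD. These genes were called in opposite directions on DR against AL, so their ratio adds nothing to those calls.

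Genes that act before and after the receptors were read from the same fits. The ligand maturation list holds proteases that cut the precursors and proteins that release the ligands. Of its 19 genes tested, 0 were called on DR against AL by edgeR, DESeq2 or limma-voom, and 1 had an unadjusted p under 0.05, as 18% of all genes had. That gene is Pcsk1, a prohormone convertase, at 20.3 CPM on DR and 16.9 on AL (log2 fold change 0.26, FDR 0.137), named after its value was seen. The median log2 fold change of the list was 0.03, beside 0.0036 for all genes. For KD against DR 1 gene was called, 5.26% of the list beside 4.94% of all genes: Syt6, a synaptotagmin, fell by 0.42 on the log2 scale (SE 0.10, FDR 0.0197). The FDR of Syt6 was 0.278 when all 12 libraries were fitted together, and 0.0607, 0.0713 and 0.0691 without DR replicate 3, KD replicate 3 or KD replicate 4.

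Of 49 genes tested that carry the Trk signal, 1 was called on DR against AL (2.04%, beside 3.06% of all genes). Nras, a small GTPase upstream of the MAP kinases, fell by 0.19 on the log2 scale (SE 0.05, FDR 0.0485), and its FDR exceeded 0.05 on leaving out any mouse but AL replicate 3 (0.0757 to 0.139 in those 7). The list had a median of -0.03, with 6 genes at an unadjusted p under 0.05, 1 higher and 5 lower, where 18% of all genes had one. For KD against DR 2 were called (4.08%, beside 4.94% of all genes). Both were lower, and 2.51% of all genes were called lower. Irs2, an adaptor of insulin and growth factor receptors, fell by 17.7%, from 117 CPM on DR to 96.4 on KD (log2 fold change -0.28, SE 0.05, FDR 0.00445), and it was called in all 8 omissions of a mouse. Plcg1, the phospholipase that binds activated Trk receptors, was at -0.17 (SE 0.04, FDR 0.0393), and its FDR was 0.0578 to 0.129 without DR replicate 1, 3 or 4 or KD replicate 1, 3 or 4.

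Among 34 tested partners of p75 and sortilin, 0 were called on DR against AL by edgeR and limma-voom and 1 by DESeq2, Sorl1, a relative of sortilin (edgeR log2 fold change -0.16, FDR 0.114). The edgeR fit gave 7 with an unadjusted p under 0.05 (18% of all genes), 2 higher and 5 lower, and a median of -0.00. For KD against DR, 3 were called (8.82%, beside 4.94% of all genes). Tnfrsf19, a receptor related to p75, rose from 12.1 CPM on DR to 15.2 on KD (log2 fold change 0.33, SE 0.08, FDR 0.022). The adaptor Traf4 rose as well (0.35, SE 0.09, FDR 0.0349), and the adaptor Traf6 fell (-0.19, SE 0.05, FDR 0.0437). Without KD replicate 3 these 3 had an FDR of 0.0802, 0.107 and 0.112, and the number called was 0 to 2 over the 8 omissions. Tnfrsf19 also missed the threshold without DR replicate 4 (FDR 0.0556), Traf4 without DR replicate 1, 2 or 3 or KD replicate 2 or 4 (0.0501 to 0.106), and Traf6 passed only without DR replicate 2 (0.048).

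Of the 4 lists, that of genes responding to neurotrophins and to neuronal activity had the median farthest from 0 in both comparisons with DR. On DR against AL 3 of 31 tested were called (9.68%, beside 3.06% of all genes). All were lower, and 1.74% of all genes were called lower. Egr4, an inducible transcription factor, was at 1.22 CPM on DR and 2.75 on AL (log2 fold change -1.16, SE 0.16, FDR 0.00164). Egr1, of the same family, fell by 21.1% (FDR 0.0133), and the inducible nuclear receptor Nr4a1 fell by 32.7% (FDR 0.023). Egr4 and Egr1 were called in all 8 omissions of a mouse, and Nr4a1 only without AL replicate 3, with an FDR of 0.0507 to 0.0643 in the other 7. The median of the list was -0.22 and 15 genes had an unadjusted p under 0.05, all of them lower, where 18% of all genes had one in either direction. Without AL replicate 3 the number called was 10. For KD against DR 8 were called (25.8%, beside 4.94% of all genes), with a median of 0.17. All were higher, and 2.43% of all genes were called higher. The 4 with the smallest p were Egr4 (1.10, FDR 0.00139), Klf10 (0.52, FDR 0.00249), Spry2 (0.33, FDR 0.00421) and Arc (0.38, FDR 0.0139), which encode 2 inducible transcription factors, an inhibitor of receptor tyrosine kinase signalling and a protein of the synaptic cytoskeleton. Arc had an FDR of 0.054 without KD replicate 3, and without that mouse 5 genes of the list were called. For KD against AL 0 genes of the 4 lists were called by edgeR, DESeq2 or limma-voom, with 0, 4, 2 and 1 at an unadjusted p under 0.05 in the order given here. Many of these response genes answer to any strong neuronal activity or hormone signal, not to neurotrophins alone. For the same AL and DR mice the paper already reported lower expression of activity-regulated genes on DR. The list was chosen with earlier results of these data known, so its counts are no independent support.

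**Figure D4:**
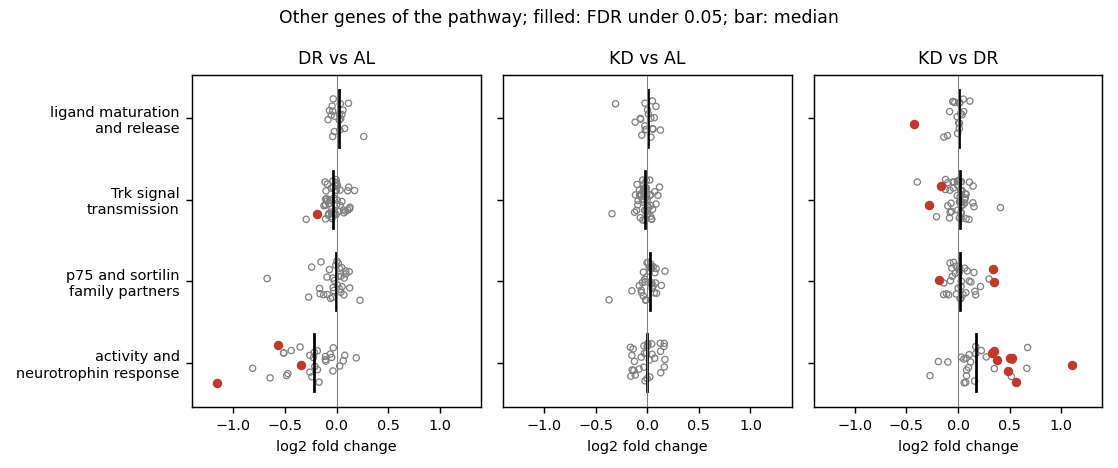
Log2 fold changes (horizontal axis) of the tested genes of 4 pathway lists (rows) in 3 pairs of diets (panels), with 1 point per gene, filled where the FDR is under 0.05, and a vertical bar at the median of each list. The activity and neurotrophin response list has medians of -0.22 for DR against AL and 0.17 for KD against DR.

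Genes with a pattern most like that of each member were found by Pearson's r of log2 CPM over the 12 libraries among 15466 genes, with r after removal of the diet means given second. The points share library and scaling, and r is a description. Ngfr was matched best by 2310015A10Rik (0.92 and 0.83), Aspg (0.89 and 0.82) and Pts, an enzyme of tetrahydrobiopterin synthesis (0.89 and 0.76). Sort1 went with the lysine methyltransferase Setd7 (0.96 and 0.92), Rabl6 (0.95 and 0.90) and Lmo7 (0.95 and 0.81). For Ntf3 the nearest were S100b, a calcium-binding protein typical of astrocytes (0.94 and 0.91), Cd300a (0.94 and 0.91) and Nat8f3 (0.94 and 0.90). Ntrk3 was followed by Gm4316 (0.91 and 0.90), the splicing factor Srsf5 (0.91 and 0.85) and Tpx2 (0.91 and 0.85). Ntrk2 was followed by Mtmr7 (0.88 and 0.91), the coatomer subunit Copa (0.87 and 0.86) and the receptor Notch2 (0.85 and 0.82), and Bdnf by Acvr1c (0.87 and 0.85), Pigx (0.85 and 0.84) and the transcription factor Mybl1 (0.85 and 0.92). No member was among the 3 nearest genes of another. Between members, r ran from -0.63 (Ngfr and Sort1) to 0.55 (Ntf3 and Sort1), and with the diet means removed those 2 pairs stood at 0.06 and 0.14.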

How the data were processed

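Libraries of 12 mice, 1 per cerebellar cortex, were made from poly(A) RNA with the TruSeq RNA V2 kit, which does not mark strand. The deposited table holds raw counts of reads per gene that the authors made without normalization. The submitters' processing notes name Trimmomatic 0.39, STAR 2.7.0f, featureCounts of Subread 1.6.4, edgeR 3.32.1 and the build GRCm38.p6. The strand setting of the counting is not given in the sources used here. Diets were taken from the labels, replicates are numbered in accession order, and each label gives 1 sample. The labels do not name litters, cages or days. All 18 pairs of mice on 1 diet differed by more than the counting error (chi-square per gene 4.95 to 11.55).

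From the counts, 2 diets at a time were fitted, on those 8 libraries alone, with edgeR 4.0.16 in R 4.3.3 (filterByExpr with a minimum count of 10 and a minimum total of 15, TMM, glmQLFit and glmQLFTest without covariates), with Benjamini-Hochberg adjustment over all genes tested and a threshold of 0.05 ("called"). SE and 95% intervals come from the F statistic and the moderated degrees of freedom. CPM use TMM-scaled totals over 12 libraries, and log2 CPM a prior count of 2. Marker lists were summed in CPM and compared by exact two-sided permutation tests over 70 divisions, of which 7 of 39 had the smallest possible p and 0 passed adjustment. With a smallest p of 0.0286, adjustment over 39 comparisons could be passed only if most of them reached it. That 0 passed therefore does not show that the marker sums were alike. Alternatives were library totals, DESeq2 1.42.0, limma-voom (limma 3.58.1), no filter, a mean above 10 CPM in either diet, 1 fit of all 12 libraries and omission of each mouse. On simulated counts the fit for DR against AL (18800 genes) recovered 57.4% of changes of 0.5 and 84% of changes of 1 on the log2 scale, with 8 false calls. The shares were 54.5% and 84.8% for KD against AL, with 15 false calls. For KD against DR they were 67.9% and 80.2%, with 12 false calls. Smaller changes were not simulated. Intervals within a library cover counting error only.

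Symbols were matched for 54723 of 54752 genes. The members and the lists were chosen with earlier results of these data known. The named genes are the 6 members, Ntf5, the called genes of each pathway list (the 4 with the smallest p where more than 6 were called), the 3 genes most like each member (mean 1 CPM or more) and markers of the tissue check or of lists that differed. Pcsk1 and Sorl1 were named after their values were seen. Genes of the pathway lists below the count filter in every comparison included Plg, Mmp3, Mmp7, Rtn4rl2 and Egr2. Some genes that the naming rule covers are not reported here. Sorcs3 is in a pathway list and a marker list.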

Additional observations from a re-analysis of the deposited data

Results flagged for a closer look

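None of the 18 groups of 4 mice over the 6 neurotrophin genes held a mouse far from the other 3. Over the 21 genes that were named from the lists or are members, 63 groups of 4 were examined, and 3 held such a mouse by Dixon's 95% critical value, where chance gives about 1 in 20. Fosl2, a transcription factor of the activity list, stood at 15.4 CPM in AL replicate 3, and the other AL mice at 26.1 to 27.7. Nr4a2, an inducible nuclear receptor, stood at 18.3 CPM in the same AL mouse, and the others at 32.7 to 33.8. Fosl2 also stood at 31.7 CPM in KD replicate 3, with the other KD mice at 20.7 to 22.3. The cause was not tested.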

How the results depend on the processing

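Over 18 results (6 genes in 3 comparisons) and 246 alternatives, 216 kept their direction and their side of the threshold, 12 fell below it, 10 rose past it and 8 changed sign. Against 2 members called for DR and AL, library totals gave 1 (Ngfr), the minimum of 10 CPM gave 1 (Sort1; Ngfr was not tested there) and omitting a mouse gave 0 to 1. Against 0 called for KD and DR, library totals gave 1, DESeq2 2, no filter 3 (Ngfr, Ntf3 and Sort1), the minimum of 10 CPM 1, the fit of 12 libraries 1 (Sort1) and omissions 0 to 1. Sign changes concerned values near 0: Ntrk2 for DR and AL was 0.02 with library totals, 0.0048 with the minimum of 10 CPM and -0.02 to 0.02 on omissions, Bdnf was -0.0029 to 0.17 for DR and AL and -0.02 to 0.11 for KD and DR, and Ntrk3 was -0.06 to 0.01 for KD and AL. For DR and AL the ligand maturation list had 1 call without a filter (0 otherwise). The Trk list (1) had 0 with library totals, 0 with limma-voom, 2 without a filter, 2 with 12 libraries and 0 to 1 on omissions. The p75 list (0) had 1 with DESeq2 and 1 without a filter, and the activity list (3) had 7 with DESeq2, 12 without a filter and 2 to 10 on omissions. For KD and DR the ligand maturation list (1) had 0 with 12 libraries and 0 to 1 on omissions, the Trk list (2) had 4 without a filter and 1 to 2 on omissions, the p75 list (3) had 1 with 12 libraries and 0 to 2 on omissions, and the activity list (8) had 5 with DESeq2, 13 without a filter, 5 with 12 libraries and 5 to 9 on omissions. For KD and AL every list and the members had 0 calls under every alternative. Over all genes, DR and AL gave 583 calls, 958 with DESeq2, 1258 without a filter and 235 to 712 on omissions, KD and AL gave 0, 10 with DESeq2, 118 without a filter and 0 to 6 on omissions, and KD and DR gave 942, 1503 without a filter and 467 to 946 on omissions. Library totals moved the share of called genes that were higher from 43.2% to 57% for DR and AL, and from 49.2% to 37.9% for KD and DR. The median log2 fold change of all genes moved the same way, from 0.00361 to 0.0247 and from -0.00239 to -0.0225. That setting differs from the main fit only in leaving out the TMM factors. They ran from 0.991 to 1.02 for DR and AL and from 0.988 to 1.02 for KD and DR. Why the factors differed between libraries was not tested. No paired analysis was possible because the labels share no replicate number between diets. For Ntf3 and Ngfr counting alone gives an error of 5.66 to 9.49% per library, and the spread of 15.6 to 33.4% between 4 mice on a diet was larger.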
